A study of Mus musculus with 7 samples.

Results

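Axon guidance genes were compared between 2 cell populations sorted from mouse bone marrow. A guidance gene was any gene whose single symbol in the probe annotation named a semaphorin, plexin, ephrin, Eph receptor, Robo, Slit, netrin or Unc5 protein. The symbol pattern matched 68 of the 18193 genes on the array. They comprised 35 ligand genes (20 semaphorins, 8 ephrins, 3 Slits and 4 netrins) and 30 receptor genes (9 plexins, 13 Eph receptors, 4 Robos and 4 Unc5 receptors). The remaining 3, Unc50, Unc5cl and Plxna4os1, matched by spelling and are neither ligands nor receptors. The pattern used names only, and no measured value entered it.

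Both populations came from wild type C57Bl/6J mice, young adults of 6 to 12 weeks, and both were sorted as CD45-Lin-, that is without the pan-leukocyte antigen and without lineage antigens. The CD54+CD31-BP1+ population, labelled bone marrow stromal cells, was measured on 4 arrays, and the CD54-CD31+ population, labelled bone marrow endothelial cells, on 3. They are called the CD54+BP1+ arrays and the CD31+ arrays here, numbered by replicate. Each array received amplified RNA from between 1800 and 10000 cells, so every value is an average over a sorted pool. The comparison addressed how the sorted populations differ in expression, and whether ligands and receptors divide between them.

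Guidance proteins were first described as cues that attract or repel growing axons, and the same proteins steer blood vessels, bone cells and migrating leukocytes. Semaphorins act through plexins, with neuropilins as co-receptors for the secreted class. Slits act through Robo receptors, and netrins through Dcc, neogenin and the Unc5 receptors. Ephrins are bound to the membrane and signal through Eph receptor tyrosine kinases on the neighbouring cell, with reverse signalling into the ephrin-bearing cell. In bone marrow, members of these families are known from work on osteoblast and osteoclast communication, on vessel patterning and on the retention of haematopoietic cells.

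With each gene read by its brightest probe set, the largest differences were in ligand genes that were higher on the CD54+BP1+ arrays. Sema7a, Slit2, Slit3, Sema4c and Sema5a differed by at least 4 on the log2 scale, and all 5 are ligands. Other probe sets of Robo1, Plxna2, Plxnb1 and Efnb1 also passed that size, and with the mean over a gene's probe sets Plxna2 (3.82) and Plxnd1 (3.81) lay above Sema7a (2.76), Slit2 (2.18) and Sema5a (1.87). Among receptor genes, Plxnd1 and Plxna2 were higher on the CD54+BP1+ arrays by 14-fold and 11.5-fold, and Plxna4 was higher on the CD31+ arrays by 11.4-fold. Values are log2 expression values, and differences are the CD54+BP1+ mean minus the CD31+ mean. Genes brighter than an array's own 40th percentile on no fewer than 3 arrays were tested, and a gene passed at a limma adjusted p under 0.05 with a log2 difference of at least 1 in either direction.

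Promoter sequence was available for 58 of the 68 genes. The 250 bases before the transcription start are shown for the 3 ligand genes with the largest differences toward the CD54+BP1+ arrays, and for Plxnc1, the plexin that binds semaphorin 7A, which passed in the other direction. The sequences are from RefSeq, build GRCm38.p6, on the strand of the gene. Capitals mark matches on either strand to 7 short motifs, namely the forkhead motif TGTTTAC, the ETS motif CCGGAAG, the Sp and KLF motif GGGCGGG, the E-box CAGCTG, the GATA factor motif AGATAA, the TATA box motif TATAAA and the palindromic EBF motif. No motif matches overlap in these sequences.
Sema7a, chr9:57939862-57940111, plus strand
Sema7a: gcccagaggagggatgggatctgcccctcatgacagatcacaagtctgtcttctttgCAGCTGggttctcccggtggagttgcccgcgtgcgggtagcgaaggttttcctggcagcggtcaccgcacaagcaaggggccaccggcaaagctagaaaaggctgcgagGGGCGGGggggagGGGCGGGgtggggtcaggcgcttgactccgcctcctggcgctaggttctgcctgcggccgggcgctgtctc
Slit2, chr5:47982905-47983154, plus strand
Slit2: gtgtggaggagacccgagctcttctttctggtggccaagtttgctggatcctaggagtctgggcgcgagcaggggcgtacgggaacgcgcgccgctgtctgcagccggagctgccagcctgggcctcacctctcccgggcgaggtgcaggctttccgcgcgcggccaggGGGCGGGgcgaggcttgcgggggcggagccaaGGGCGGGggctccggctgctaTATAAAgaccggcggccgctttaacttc
Slit3, chr11:35121206-35121455, plus strand
Slit3: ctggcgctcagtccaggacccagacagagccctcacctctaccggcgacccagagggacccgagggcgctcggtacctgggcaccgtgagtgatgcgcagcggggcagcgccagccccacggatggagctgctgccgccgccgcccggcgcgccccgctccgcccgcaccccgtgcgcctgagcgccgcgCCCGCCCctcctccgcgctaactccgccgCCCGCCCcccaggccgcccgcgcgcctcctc
Plxnc1, chr10:94944846-94945095, minus strand
Plxnc1: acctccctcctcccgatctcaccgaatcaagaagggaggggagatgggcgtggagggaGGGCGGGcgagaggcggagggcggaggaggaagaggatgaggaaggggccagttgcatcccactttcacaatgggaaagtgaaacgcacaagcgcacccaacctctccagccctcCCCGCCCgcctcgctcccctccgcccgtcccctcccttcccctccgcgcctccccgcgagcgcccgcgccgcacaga
All 4 sequences hold GGGCGGG or its reverse complement at 2 places. The Sema7a sequence also holds the E-box, 193 bases before the start, and the Slit2 sequence holds TATAAA, 28 bases before the start. None of the 4 holds the GATA, EBF, forkhead or ETS letters. The GC content was 66.4% for Sema7a, 69.6% for Slit2, 78.8% for Slit3 and 68.8% for Plxnc1.

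Over windows of 300 bases, from 250 before to 50 after the start, GGGCGGG was present in 60.8% of the 74 windows of guidance genes and in 25.6% of all 32851 promoter windows. The genes that passed toward the CD54+BP1+ arrays held it in 71.4% of 21 windows, and those that passed toward the CD31+ arrays in 57.1% of 14 windows. The median GC content was 64.2% for guidance genes and 52.7% for all windows. TATAAA was found in 2.7% of guidance windows and 13.6% of all windows, and AGATAA in 4.05% and 11.2%. The E-box letters were about as frequent in guidance windows (16.2%) as in all windows (16.3%). Genes with several starts contribute several windows, and a match describes letters only.

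The arrays had medians between 6.00 and 6.19. Their 40th percentile was between 5.48 and 5.52 on the CD54+BP1+ arrays and between 5.68 and 5.79 on the CD31+ arrays. Genes below the filter had a median difference of -0.58, which was -0.28 after a second quantile normalization and -0.12 after cyclic loess. Dim genes thus tended to read higher on the CD31+ arrays. The part of this shift in calls with dim CD54+BP1+ values was not tested. The sorting antigens followed the gates except for CD45. Enpep, which encodes BP1, averaged 12.00 on the CD54+BP1+ arrays and 5.08 on the CD31+ arrays, Icam1 (CD54) 10.50 and 5.31, and Pecam1 (CD31) 4.93 and 8.41, while Ptprc (CD45) averaged 6.45 and 9.64. All 12 genes of a reticular stroma list passed toward the CD54+BP1+ arrays, with Cxcl12 at 14.73 and 6.84 and Lepr at 13.12 and 4.45. Endothelial genes were mixed. Of 18 on the array, Cdh5 averaged 4.64 and 5.39, Emcn 3.89 and 4.14, and Tek, Tie1 and Sox17 also lay below the 40th percentile in both populations. Of the 13 tested, 5 were higher on the CD31+ arrays. They were Esam (7.08 and 12.09), Plvap (5.28 and 8.86), Lyve1 (4.94 and 7.37), Kdr (6.63 and 8.71) and Flt1 (6.49 and 7.51). The other 8 passed neither way. Among those 8, Eng averaged 8.43 and 7.49 and was higher on every CD54+BP1+ array (difference 0.93, adjusted p = 0.00201), short of the size limit. The mean level of the 18 genes was between 5.66 and 5.81 on the CD54+BP1+ arrays and between 6.83 and 6.94 on the CD31+ arrays. All 10 megakaryocyte and platelet genes on the array passed toward the CD31+ arrays, with Pf4 at 8.16 and 14.31 and Itga2b at 8.15 and 14.43, as did 9 of 10 pan-leukocyte genes. The label of the CD31+ population is thus met by 5 of the 18 endothelial genes. It is not met by Cdh5, Emcn, Tek, Tie1 and Sox17, or by Eng, and the rest of the 8 passed neither way. The population is called by its gate throughout. Spiked-in hybridisation controls, read by 18 probe sets, averaged 11.33 and 11.37 on CD31+ arrays 2 and 3 and between 9.51 and 9.75 on the other 5 arrays.

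Of the 68 guidance genes, 57 were tested. The 11 set aside by the filter were Epha5, Epha6, Ephb6, Ntn3, Robo2, Robo4, Sema3c, Sema3d, Sema3e, Sema3g and Unc5d. Of those tested, 20 were higher on the CD54+BP1+ arrays (35.1%), where 30.9% of all 13995 genes tested passed in that direction. In the other direction 12 were higher on the CD31+ arrays (21.1%), against 16.1% of all genes. Both shares lie near the background and are no result particular to guidance genes. The remaining 25 passed neither way. The median difference was -0.21 over the guidance genes tested and 0.19 over all genes tested. After a second quantile normalization of the deposited values 17 and 12 guidance genes passed, and 23.2% and 21.4% of all genes did, with medians of -0.12 for both. After cyclic loess the median of the guidance genes was 0.05, so its sign depends on the scaling.

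Ligands and receptors divided between the populations in similar shares. Of 30 ligand genes tested, 10 were higher on the CD54+BP1+ arrays (33.3%) and 7 on the CD31+ arrays (23.3%), with a median difference of -0.10. Of 24 receptor genes tested, 9 were higher on the CD54+BP1+ arrays (37.5%) and 4 on the CD31+ arrays (16.7%), with a median of -0.23. After cyclic loess the medians were 0.15 for ligands and -0.01 for receptors, so the sign of the ligand median changed. The difference between ligands and receptors was not tested. The 5 genes with a log2 difference of at least 4 stood among 502 such genes of all those tested, or 3.59%. No guidance gene was among the 1.38% of that size in the other direction. By size, 12 guidance genes were higher on the CD54+BP1+ arrays by a log2 difference of at least 2, 7 of them ligands and 5 receptors. Toward the CD31+ arrays 2 genes, Sema4a and Plxna4, reached that size. The share of all genes past this size was not counted, so these counts are set against no background.

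Individual values did not overlap between the populations for 22 guidance genes higher on the CD54+BP1+ arrays and 19 higher on the CD31+ arrays, where 35.7% and 32.7% of all genes tested were separated in this way. In RNA from sorted pools, fewer cells of a type and less RNA per cell cannot be told apart. The labels do not say whether replicates came from separate mice or sorts, so p-values measure only the spread between these arrays.

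**Figure D1:**
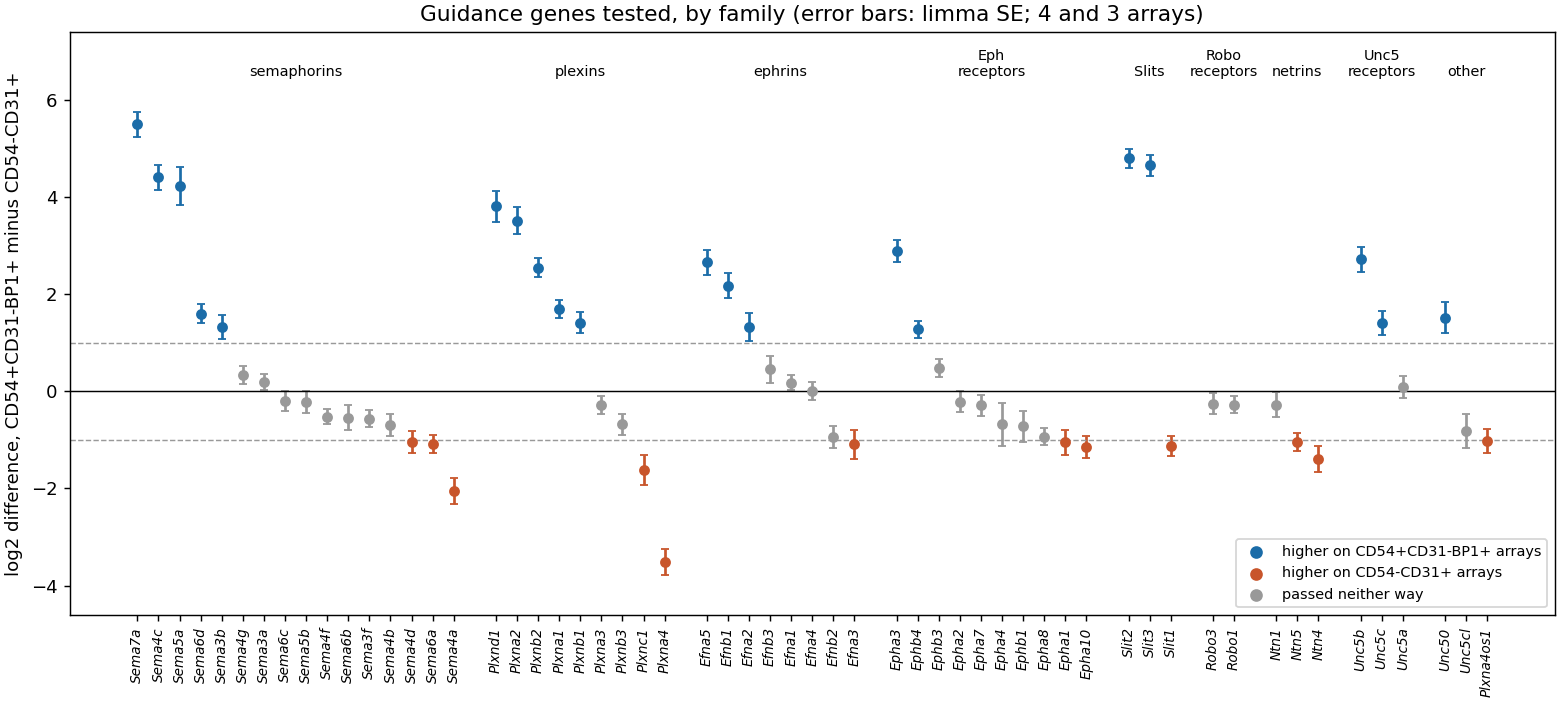
Log2 difference, CD54+CD31-BP1+ minus CD54-CD31+, of each of the 57 guidance genes tested (horizontal axis, grouped by family), with the limma standard error as bars and dashed lines at differences of 1 and -1. Semaphorins, plexins, ephrins, Eph receptors and Slits hold genes on both sides of 0, and the points above 4 are Sema7a, Slit2, Slit3, Sema4c and Sema5a.

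Semaphorins gave 5 genes higher on the CD54+BP1+ arrays and 3 higher on the CD31+ arrays among 16 tested (30.9% and 16.1% over all genes). Sema7a encodes a membrane-anchored semaphorin that binds plexin C1 and integrins. Its values were 11.68, 11.99, 11.59 and 11.98 on the CD54+BP1+ arrays and 5.82, 6.79 and 6.31 on the CD31+ arrays. The groups were far apart, with every CD54+BP1+ array high and well above every CD31+ array. The difference was 5.50 (SE 0.26, adjusted p = 9.96e-07), or 45.3-fold. The second Sema7a probe set read 5.89 and 5.87 on average, a difference of 0.02, and with the mean of both probe sets the difference was 2.76.

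Sema4c, a transmembrane ligand of plexin B2, read 11.46, 11.24, 11.31 and 11.63 on the CD54+BP1+ arrays and 7.62, 6.69 and 6.70 on the CD31+ arrays. Among the CD31+ arrays, array 1 was the highest, and it still lay well below all CD54+BP1+ arrays. The difference was 4.41 (SE 0.26, adjusted p = 3.6e-06), or 21.2-fold.

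Sema5a, a transmembrane semaphorin with thrombospondin repeats, read 8.71, 9.20, 9.35 and 7.75 on the CD54+BP1+ arrays and 4.09, 4.76 and 4.71 on the CD31+ arrays. CD54+BP1+ array 4 was the lowest of its group, and the groups did not overlap. The difference was 4.23 (SE 0.39, adjusted p = 4.49e-05). No fold is given because the CD31+ mean lay below the 40th percentile of its arrays. The mean over the Sema5a probe sets gave 1.87.

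Sema6d, a transmembrane ligand of plexin A1, was bright in both populations. It read 12.47, 12.51, 12.48 and 12.66 on the CD54+BP1+ arrays and 11.01, 11.20 and 10.58 on the CD31+ arrays. The groups did not overlap, and the difference was 1.60 (SE 0.20, adjusted p = 0.000224), or 3.03-fold. With the mean over its 4 probe sets, most of them dim, the difference was 0.37 and did not pass.

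Sema3b was the secreted class 3 semaphorin that passed. Its values were 7.77, 7.45, 7.0 and 7.54 on the CD54+BP1+ arrays and 6.45, 5.92 and 5.93 on the CD31+ arrays. The lowest CD54+BP1+ array lay above the highest CD31+ array, and the difference was 1.33 (SE 0.24, adjusted p = 0.00181). The call was lost with the mean over the probe sets (0.27) and with the hybridisation control level as a block (0.98). Other probe sets of Sema3b gave -0.66 and 0.13. Of the other class 3 genes, Sema3c, Sema3d, Sema3e and Sema3g were below the filter, Sema3a differed by 0.19, and Sema3f by -0.56.

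Toward the CD31+ arrays, Sema4a, a ligand known from T cell priming, had the largest difference among semaphorins. It read 5.39, 5.76, 5.02 and 4.83 on the CD54+BP1+ arrays and 7.23, 7.59 and 7.09 on the CD31+ arrays. The CD54+BP1+ arrays were dim and the groups were separate. The difference was -2.05 (SE 0.26, adjusted p = 0.000281), and a second probe set gave -0.69. The call was therefore lost when probe sets with cross-hybridising suffixes were left out.

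Sema4d, known as CD100 on lymphocytes and a ligand of plexin B1, read 6.88, 7.61, 7.31 and 7.42 on the CD54+BP1+ arrays and 8.37, 8.58 and 8.09 on the CD31+ arrays. The groups were separate by less than 1 unit at their nearest arrays. The difference was -1.04 (SE 0.23, adjusted p = 0.00438). The call was lost without CD54+BP1+ array 1 (-0.90) and without CD31+ array 2 (-0.93).

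Sema6a, a transmembrane ligand of plexins A2 and A4, read 5.45, 5.72, 5.64 and 5.75 on the CD54+BP1+ arrays and 7.02, 6.67 and 6.46 on the CD31+ arrays. The CD31+ arrays were all higher, and the difference was -1.08 (SE 0.19, adjusted p = 0.00185). The call was lost without CD31+ array 1 (-0.92) and after cyclic loess (-0.74). The 8 semaphorins that were tested and passed neither way ranged from 0.34 for Sema4g to -0.69 for Sema4b.

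All 9 plexins, the semaphorin receptors, were tested. They gave 5 genes higher on the CD54+BP1+ arrays and 2 higher on the CD31+ arrays (30.9% and 16.1% over all genes). Plxnd1, a receptor known for vessel patterning, read 11.13, 10.43, 10.54 and 10.25 on the CD54+BP1+ arrays and 6.37, 7.37 and 6.58 on the CD31+ arrays. Every CD54+BP1+ array was the higher by a wide margin. The difference was 3.81 (SE 0.31, adjusted p = 1.96e-05). Sema3e, the ligand that binds plexin D1 directly, was below the filter.

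Plxna2, a receptor for class 6 semaphorins, read 10.09, 10.56, 10.51 and 9.51 on the CD54+BP1+ arrays and 6.59, 6.81 and 6.54 on the CD31+ arrays. The groups did not overlap, and the difference was 3.52 (SE 0.27, adjusted p = 1.67e-05), or 11.5-fold. Its 3 other probe sets gave 4.70, 2.79 and 4.25, and all passed.

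Plxnb2, the receptor of semaphorin 4C, read 9.95, 9.94, 9.84 and 9.84 on the CD54+BP1+ arrays and 6.96, 7.62 and 7.43 on the CD31+ arrays. The CD54+BP1+ arrays lay close together and above all CD31+ arrays. The difference was 2.55 (SE 0.20, adjusted p = 1.67e-05), or 5.87-fold. Ligand and receptor genes of this pair were thus both higher on the CD54+BP1+ arrays.

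Plxna1 and Plxnb1 differed less. Plxna1, the receptor of semaphorin 6D, read 9.17, 8.84, 8.91 and 9.26 on the CD54+BP1+ arrays and 7.34, 7.23 and 7.48 on the CD31+ arrays, without overlap. The difference was 1.70 (SE 0.18, adjusted p = 0.000106). A second probe set of Plxna1 gave -0.58, and with the mean over its probe sets the difference was 0.56 and did not pass.

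Plxnb1, the receptor of semaphorin 4D, read 9.89, 9.94, 9.57 and 10.40 on the CD54+BP1+ arrays and 8.46, 8.46 and 8.67 on the CD31+ arrays. The groups were separate, and the difference was 1.42 (SE 0.22, adjusted p = 0.000884). A second probe set gave a larger one, 4.02, from means of 9.24 and 5.22. For this pair the receptor gene was higher on the CD54+BP1+ arrays, and Sema4d on the CD31+ arrays. After a second quantile normalization the Plxnb1 difference was 0.85, and after cyclic loess it was 0.84, and the call was lost in both.

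Plxna4, a receptor for class 3 and class 6 semaphorins, was the guidance gene with the largest difference toward the CD31+ arrays. It read 5.50, 5.85, 5.79 and 6.02 on the CD54+BP1+ arrays and 9.24, 8.82 and 9.86 on the CD31+ arrays. All CD54+BP1+ arrays were near the dim end and all CD31+ arrays were high. The difference was -3.52 (SE 0.27, adjusted p = 1.42e-05), which is 11.4-fold higher on the CD31+ arrays. A second Plxna4 probe set averaged 5.77 and 8.47 and passed as well, at -2.70.

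Plxnc1, the receptor of semaphorin 7A, read 7.14, 7.33, 7.15 and 7.69 on the CD54+BP1+ arrays and 8.39, 8.76 and 9.65 on the CD31+ arrays. CD31+ array 3 was the highest, and the groups did not overlap. The difference was -1.61 (SE 0.31, adjusted p = 0.00253), or 3.05-fold higher on the CD31+ arrays. This pair therefore lay on opposite sides, with the ligand gene higher on the CD54+BP1+ arrays. The Plxnc1 call was lost with the mean over its probe sets (-0.84) and with the hybridisation control level as a block (-1.06, adjusted p = 0.0543), and a second probe set gave 0.20.

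Megakaryocyte, platelet and leukocyte genes moved with the same contrast as Plxna4, Plxnc1, Sema4a and Sema4d. The mean level of the 10 megakaryocyte and platelet genes was between 5.82 and 8.40 on the CD54+BP1+ arrays and between 13.42 and 13.80 on the CD31+ arrays. Array 4 was the CD54+BP1+ array at 8.40. Plxna4 read 6.02 there, against 5.50 to 5.85 on the other 3, and Plxnc1 7.69, against 7.14 to 7.33. Sema4a read 4.83 on array 4, below its other values of 5.02 to 5.76, and Sema4d 7.42, within its others of 6.88 to 7.61. The 10 pan-leukocyte genes averaged between 6.09 and 8.03 on the CD54+BP1+ arrays and between 10.79 and 11.57 on the CD31+ arrays. The part of these cells in the guidance genes was not tested.

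**Figure D2:**
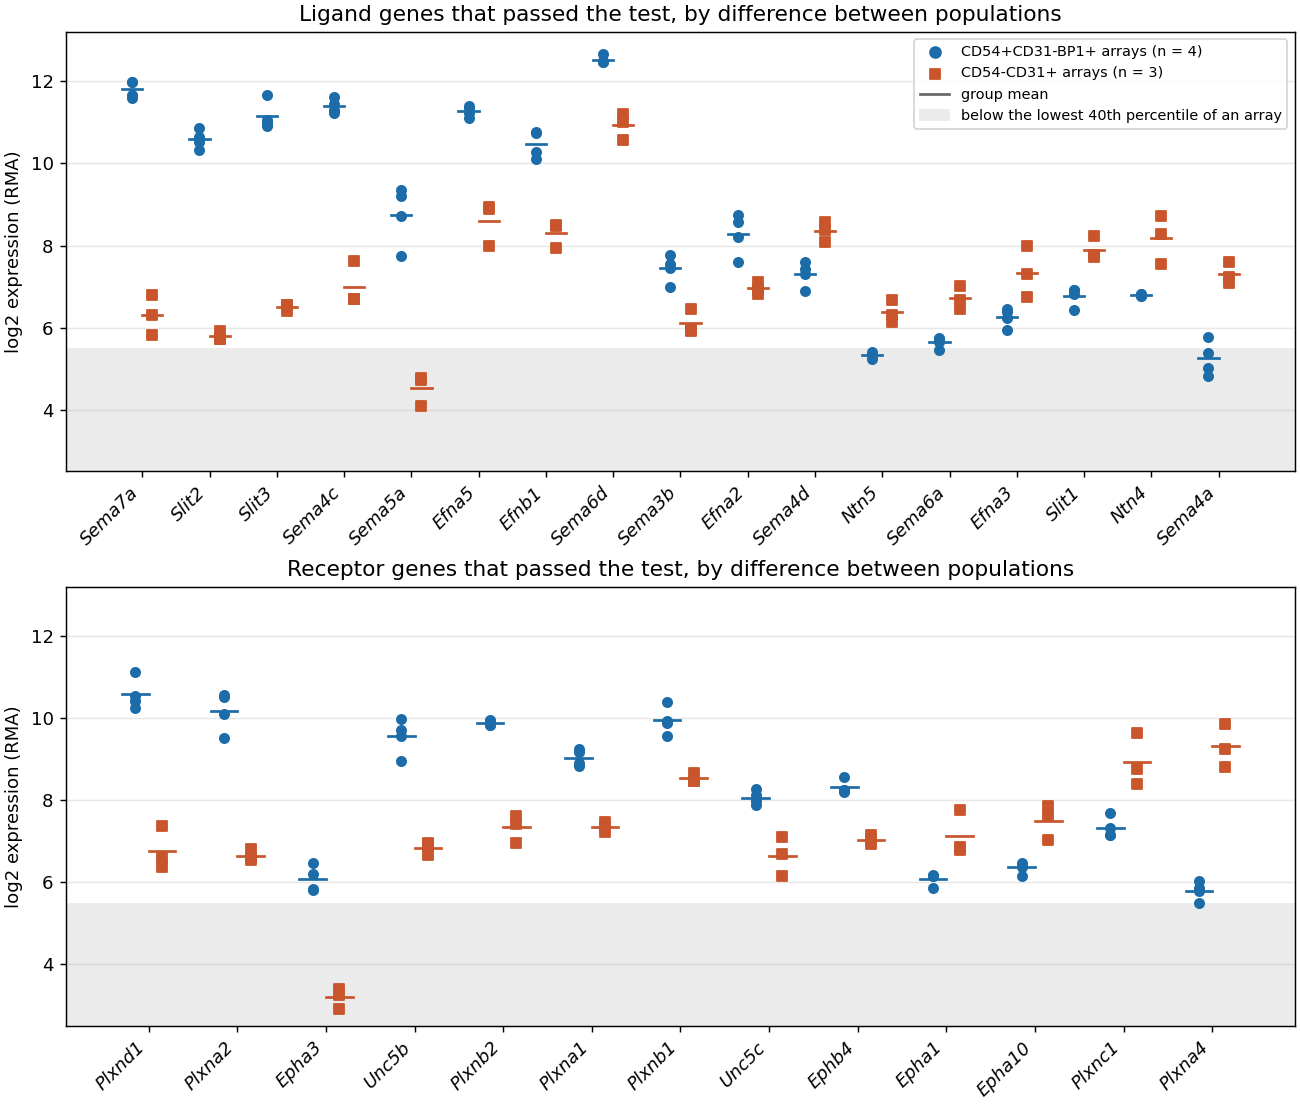
Log2 expression on each array for the ligand genes (upper panel) and receptor genes (lower panel) that passed the test, with circles for the 4 CD54+CD31-BP1+ arrays, squares for the 3 CD54-CD31+ arrays and lines for group means. Grey shading lies below the lowest 40th percentile of an array. No group overlaps the other for any gene drawn, and Sema5a and Epha3 fall in the shaded range on the CD31+ arrays.

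Slits were divided. Slit2 and Slit3, secreted ligands of Robo receptors, were higher on the CD54+BP1+ arrays, and Slit1 on the CD31+ arrays. Slit2 read 10.34, 10.64, 10.52 and 10.87 on the CD54+BP1+ arrays and 5.73, 5.73 and 5.91 on the CD31+ arrays. The CD31+ arrays were all near the dim end, and the difference was 4.80 (SE 0.19, adjusted p = 4.23e-07), or 27.9-fold. A second Slit2 probe set also passed, at 1.73, and the mean over the Slit2 probe sets gave 2.18.

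Slit3 read 11.67, 11.05, 10.91 and 10.99 on the CD54+BP1+ arrays and 6.41, 6.54 and 6.54 on the CD31+ arrays. CD54+BP1+ array 1 was the highest, and the groups were far apart. The difference was 4.66 (SE 0.22, adjusted p = 1.1e-06), or 25.3-fold.

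Slit1 read 6.44, 6.83, 6.92 and 6.91 on the CD54+BP1+ arrays and 7.76, 7.71 and 8.24 on the CD31+ arrays. The CD31+ arrays were all higher, by -1.13 (SE 0.21, adjusted p = 0.00226). Without CD31+ array 3 the difference was -0.96, and with the hybridisation control level as a block it was -0.99, short of the limit in both cases.

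Robo receptors passed in neither direction with the probe sets used. Robo3, a divergent Robo, read 7.04, 6.68, 7.01 and 6.55 on the CD54+BP1+ arrays and 7.11, 7.29 and 6.83 on the CD31+ arrays, and the ranges overlapped (difference -0.25). Robo1, a receptor of the Slits, read 5.94, 6.14, 6.24 and 6.15 on the CD54+BP1+ arrays and 6.40, 6.49 and 6.28 on the CD31+ arrays, a difference of -0.27 (SE 0.17, adjusted p = 0.172). Its other probe set that passed the filter averaged 8.13 and 3.07. That difference was 5.05 (SE 0.27, adjusted p = 2.63e-06 over 24519 probe sets), where 28.3% of all probe sets passed in that direction and 15% in the other. The Robo1 result therefore depends on the probe set read, and the 2 values are given side by side.

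Robo4, a receptor of vessel endothelium, was below the filter. It read 4.70, 4.93, 5.29 and 5.09 on the CD54+BP1+ arrays and 5.25, 6.58 and 5.70 on the CD31+ arrays. CD31+ array 2 was the highest and array 1 lay within the CD54+BP1+ range. Robo2 averaged 3.43 and 4.02 and was below the filter as well.

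All 8 ephrins were tested. They gave 3 genes higher on the CD54+BP1+ arrays and 1 higher on the CD31+ arrays (30.9% and 16.1% over all genes). Efna5, a lipid-anchored ephrin that binds EphA receptors, read 11.10, 11.35, 11.39 and 11.22 on the CD54+BP1+ arrays and 8.93, 8.88 and 8.0 on the CD31+ arrays. Both groups lay well above the dim range and did not overlap. The difference was 2.66 (SE 0.26, adjusted p = 5.51e-05), or 6.32-fold, and the mean over its probe sets gave 1.04.

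Efnb1, a transmembrane ephrin known from skeletal patterning, read 10.29, 10.74, 10.77 and 10.12 on the CD54+BP1+ arrays and 7.93, 8.47 and 8.51 on the CD31+ arrays. The groups were separate, with a difference of 2.18 (SE 0.25, adjusted p = 0.00014), or 4.53-fold. Its 2 other probe sets gave 4.02 and 2.07, and both passed.

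Efna2, another ligand of EphA receptors, read 8.20, 8.58, 8.75 and 7.60 on the CD54+BP1+ arrays and 6.81, 7.11 and 6.95 on the CD31+ arrays, and the difference was 1.32 (SE 0.29, adjusted p = 0.00433). The call was lost after a second quantile normalization (0.88), after cyclic loess (0.80) and with the mean over probe sets (0.61).

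Efna3 was the ephrin higher on the CD31+ arrays. It read 5.95, 6.39, 6.45 and 6.23 on the CD54+BP1+ arrays and 7.98, 6.75 and 7.31 on the CD31+ arrays, with array 1 the highest. The difference was -1.09 (SE 0.30, adjusted p = 0.0116), and the call was lost without CD31+ array 1 (-0.77) and without CD54+BP1+ array 1 (-0.99). Efnb2, a ligand known from arterial vessels and the partner of EphB4, differed by -0.94 (adjusted p = 0.00791), short of the size limit, with a dim CD54+BP1+ mean. Efna1, Efna4 and Efnb3 differed by 0.18, 0.01 and 0.46.

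Eph receptors gave 2 genes in each direction among 10 tested. Over all genes, 30.9% passed toward the CD54+BP1+ arrays and 16.1% toward the CD31+ arrays. Epha3, a receptor of ephrin-A5, read 5.80, 6.21, 6.48 and 5.84 on the CD54+BP1+ arrays and 2.92, 3.24 and 3.40 on the CD31+ arrays. The CD31+ arrays were far below their 40th percentile, so no fold is given. The difference was 2.90 (SE 0.23, adjusted p = 1.88e-05). The other Epha3 probe sets were below the filter, with differences of 2.29, -0.85 and -0.76. With the mean over probe sets, or with a filter at the 60th percentile, Epha3 was not tested.

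Ephb4, the receptor of ephrin-B2, read 8.24, 8.24, 8.21 and 8.57 on the CD54+BP1+ arrays and 6.92, 7.02 and 7.15 on the CD31+ arrays. The groups were separate and array 4 was the highest. The difference was 1.28 (SE 0.17, adjusted p = 0.000405), or 2.44-fold, and it was 0.79 after a second quantile normalization and 0.75 after cyclic loess, short of the limit in both.

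Epha10, an Eph family member regarded as lacking kinase activity, read 6.14, 6.38, 6.43 and 6.48 on the CD54+BP1+ arrays and 7.61, 7.04 and 7.85 on the CD31+ arrays. The difference was -1.14 (SE 0.23, adjusted p = 0.00295), and without CD31+ array 3 it was -0.96 and the call was lost. Epha1 read 5.87, 6.17, 6.16 and 6.15 on the CD54+BP1+ arrays and 7.77, 6.79 and 6.85 on the CD31+ arrays, where array 1 stood above the other two. The Epha1 difference was -1.05 (SE 0.26, adjusted p = 0.00841), and the call was lost without CD31+ array 1 (-0.73), without CD54+BP1+ array 1 (-0.98) and after cyclic loess (-0.93).

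Epha2, a receptor of ephrin-A1, overlapped between the populations. It read 8.75, 9.07, 8.74 and 8.79 on the CD54+BP1+ arrays and 8.67, 9.10 and 9.36 on the CD31+ arrays, a difference of -0.21 (adjusted p = 0.399). Epha4 was uneven on the CD31+ arrays, with 7.63 on array 3 and 5.85 and 5.65 on arrays 1 and 2, and differed by -0.68 (adjusted p = 0.199). Ephb3 had an adjusted p of 0.0489 with a difference of 0.48, and Epha8 one of 0.00232 with -0.93, so both missed the size limit. Ephb1 and Epha7 differed by -0.72 and -0.29, and Epha5, Epha6 and Ephb6 were below the filter.

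Netrins gave 2 genes higher on the CD31+ arrays and none higher on the CD54+BP1+ arrays among 3 tested (16.1% and 30.9% over all genes). Ntn4, a netrin of basement membranes, read 6.76, 6.82, 6.76 and 6.81 on the CD54+BP1+ arrays and 8.28, 7.56 and 8.73 on the CD31+ arrays. The CD54+BP1+ arrays lay close together below all CD31+ arrays. The difference was -1.40 (SE 0.27, adjusted p = 0.0025), or 2.64-fold higher on the CD31+ arrays.

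Ntn5 read 5.24, 5.33, 5.34 and 5.41 on the CD54+BP1+ arrays, below their 40th percentile, and 6.31, 6.14 and 6.67 on the CD31+ arrays. The difference was -1.04 (SE 0.18, adjusted p = 0.00165). The Ntn5 call was lost without CD31+ array 3 (-0.89), with the hybridisation control level as a block (-0.97), after a second quantile normalization (-0.95) and after cyclic loess (-0.59). Ntn1, the founding netrin, overlapped between the groups at a difference of -0.27, and Ntn3 was below the filter.

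Unc5 receptors, which mediate repulsion by netrins, gave 2 genes higher on the CD54+BP1+ arrays among 3 tested (30.9% over all genes). Unc5b read 8.95, 9.99, 9.71 and 9.57 on the CD54+BP1+ arrays and 6.67, 6.95 and 6.90 on the CD31+ arrays. The groups were separate, and the difference was 2.72 (SE 0.26, adjusted p = 5.13e-05), or 6.59-fold. A second Unc5b probe set gave 0.25, and the mean over both gave 1.48.

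Unc5c read 8.12, 8.28, 7.88 and 7.97 on the CD54+BP1+ arrays and 6.14, 7.11 and 6.70 on the CD31+ arrays. The groups did not overlap, and the difference was 1.41 (SE 0.25, adjusted p = 0.00167). It was 0.76 with the mean over the probe sets and 0.99 after cyclic loess, short of the limit in both. Unc5a overlapped between the groups and differed by 0.09, and Unc5d was below the filter.

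Of the genes that matched by spelling, Unc50 was higher on the CD54+BP1+ arrays by 1.52, a call lost with the hybridisation control level as a block (1.26, adjusted p = 0.0626) and without cross-hybridising probe sets (0.78), and Plxna4os1 was higher on the CD31+ arrays at -1.02. Plxna4os1 is an antisense transcript of the Plxna4 locus and was dim on the CD54+BP1+ arrays, at 5.04 to 5.33, against 5.85 to 6.74 on the CD31+ arrays. Its call was lost without CD31+ array 3 (-0.76), without CD54+BP1+ array 4 (-0.96), with that block (-0.65, adjusted p = 0.106), after a second quantile normalization (-0.90) and after cyclic loess (-0.54). Unc5cl passed neither way at -0.81.

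Many guidance genes were read by several probe sets. The 68 genes had 145 probe sets, of which 84 passed the filter. Among the 43 genes with more than 1 probe set, 18 had no other probe set tested, and for 4 the probe set used was not tested. Where another was tested, all tested probe sets passed in the same direction for 6 genes, namely Efnb1, Plxna2, Plxna4, Plxnb1, Sema5a and Slit2. For 10 genes the probe set used passed and at least 1 other did not. For Robo1, Sema4b and Sema6c the probe set used did not pass and another did, with differences of 5.05, -1.13 and -1.06. No gene had probe sets that passed in opposite directions. On adjusted p alone, a probe set of Sema3b (-0.66, adjusted p = 0.00985) and one of Plxna1 (-0.58, adjusted p = 0.0292) went against the probe set used. Probe sets of one gene can read different transcript ends, and which of them reads the main transcript is not analysed here.

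**Figure D3:**
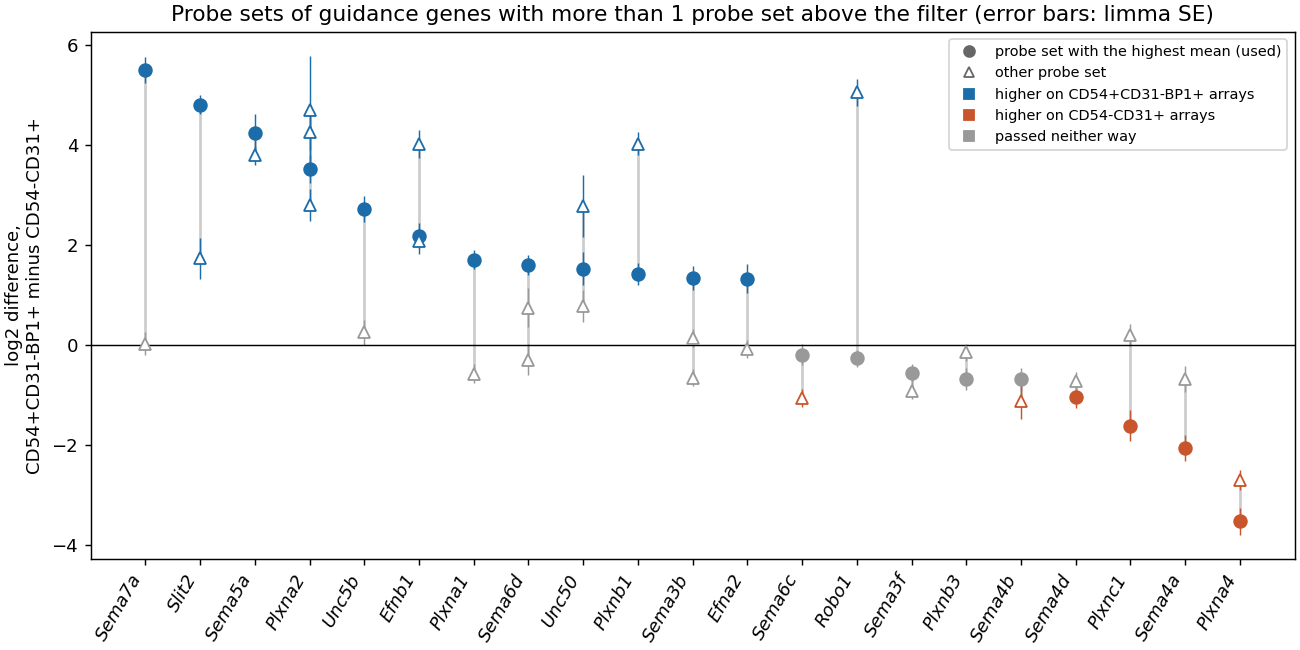
Log2 difference, CD54+CD31-BP1+ minus CD54-CD31+, of every probe set above the filter for the guidance genes that had more than 1, with the limma standard error. Circles are the probe sets with the highest mean and triangles the others. The circle and triangle of Sema7a (5.50 and 0.02) and those of Robo1 (-0.27 and 5.05) lie furthest apart.

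Co-receptors, other ligands and effectors of the same pathways were taken from 5 lists. Of 99 such genes on the array, 92 were tested, 36 were higher on the CD54+BP1+ arrays, 23 were higher on the CD31+ arrays and 33 passed neither way, where 30.9% of all genes tested passed toward the CD54+BP1+ arrays and 16.1% toward the CD31+ arrays. For Dpysl2, Gsk3b and Kalrn, probe sets of the same gene passed in opposite directions. Of 14 genes of the co-receptor list tested, 6 were higher on the CD54+BP1+ arrays and 4 on the CD31+ arrays (30.9% and 16.1% over all genes), with a list median of -0.32.

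Nrp1, the neuropilin that carries secreted semaphorins and VEGF to their signalling receptors, read 13.69, 13.38, 13.49 and 13.64 on the CD54+BP1+ arrays and 7.89, 9.80 and 7.20 on the CD31+ arrays. CD31+ array 2 was the highest of its group and still far below the other population. The difference was 5.25 (SE 0.54, adjusted p = 7.86e-05), or 38.1-fold. Nrp2 differed by 4.49 (22.5-fold), and Neo1, which encodes the netrin and RGM receptor neogenin, by 4.44 (21.8-fold).

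The L1 family adhesion genes Chl1 and Nrcam differed by 4.96 and 3.97. L1cam, of the same family, passed the other way at -1.09 (adjusted p = 0.0282), although its groups overlapped. The L1cam call was lost under 11 of the 19 alternatives that tested it. The largest difference in the list was 7.04 for Igsf3, an immunoglobulin superfamily gene that the list holds although it has no established place in guidance.

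Dcc, the netrin receptor gene, read 6.31, 6.74, 6.68 and 6.70 on the CD54+BP1+ arrays and 8.48, 7.60 and 8.01 on the CD31+ arrays. It was higher on every CD31+ array, with a difference of -1.43 (SE 0.24, adjusted p = 0.00137), or 2.69-fold. The other Dcc probe sets were below the filter, with means of 3.28 and 3.46 and of 4.14 and 4.43. By the probe sets used, the netrin receptor genes lay on both sides, with Neo1, Unc5b and Unc5c higher on the CD54+BP1+ arrays. Kdr, a VEGF receptor, differed by -2.08 and Cd72, a B cell receptor of semaphorin 4D, by -1.17. The Cd72 call was lost without CD31+ array 2.

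Among 11 other guidance ligands, 4 were higher on the CD54+BP1+ arrays and 3 on the CD31+ arrays (30.9% and 16.1% over all genes). Draxin, which encodes a secreted ligand of Dcc, read 6.25, 5.94, 5.92 and 6.56 on the CD54+BP1+ arrays and 12.31, 11.75 and 11.59 on the CD31+ arrays. The groups were far apart, at a difference of -5.72 (SE 0.25, adjusted p = 7.48e-07), or 52.7-fold higher on the CD31+ arrays. A second Draxin probe set averaged 5.90 and 7.24, a difference of -1.34. In the other direction, Flrt2, a ligand of Unc5 receptors, differed by 4.81, Ndnf by 4.79 and Vegfa by 4.11. A second Vegfa probe set gave 0.64 and did not pass. The mean over the probe sets gave 2.37 for Vegfa and 2.54 for Ndnf. Hjv and Ntng1 were higher on the CD31+ arrays at -1.70 and -1.16, with dim CD54+BP1+ means, and the Ntng1 call was lost without CD31+ array 3 and the Hjv call with the hybridisation control level as a block (-0.96). The Ntng1 call was also lost after cyclic loess, at -0.64.

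Of 21 plexin effectors tested, 10 were higher on the CD54+BP1+ arrays and 3 on the CD31+ arrays (30.9% and 16.1% over all genes). Dpysl3, a collapsin response mediator, differed by 5.58 and Farp1, a guanine nucleotide exchange factor, by 3.21. Toward the CD31+ arrays, Gipc1 differed by -2.43, Arhgef12, the exchange factor of B plexins, by -1.97 and Rac1 by -1.60.

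Of 24 Eph and ephrin effectors tested, 6 were higher on the CD54+BP1+ arrays and 11 on the CD31+ arrays (30.9% and 16.1% over all genes), with a list median of -0.88. Kalrn, an exchange factor gene, was counted on the CD31+ side at -1.96 by the probe set used, while another of its probe sets passed the other way at 3.59. The adaptor genes Grb14 and Grb10 differed by 5.07 and 4.84, and Spsb1 by 4.36. Sla, an adaptor of haematopoietic cells, differed by -5.57, Vav3 by -3.73 and the kinase gene Fyn by -3.47, and these genes are known in leukocytes and platelets as well as in Eph signalling. The pan-leukocyte genes were between 10.79 and 11.57 on the same CD31+ arrays, and their part in this list was not tested.

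Of 22 Robo and netrin effectors tested, 10 were higher on the CD54+BP1+ arrays and 2 on the CD31+ arrays (30.9% and 16.1% over all genes). The syndecan genes Sdc2 and Sdc1, heparan sulphate proteoglycans that assist Slit binding to Robo, differed by 5.57 and 5.30, and Trio, an exchange factor of netrin signalling, by 4.13. Vasp and Pitpna were higher on the CD31+ arrays at -1.05 and -1.02. Vasp was lost without CD54+BP1+ array 2 or 3 and without CD31+ array 1 or 3, and Pitpna without CD54+BP1+ array 3 or CD31+ array 2. With the mean over a gene's probe sets, the pathway differences shrank for several named genes that still passed, to 1.04 for Trio, 1.16 for Chl1, 1.33 for Farp1, 1.47 for Spsb1 and 1.82 for Grb10, and Pitpna was at -0.03.

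**Figure D4:**
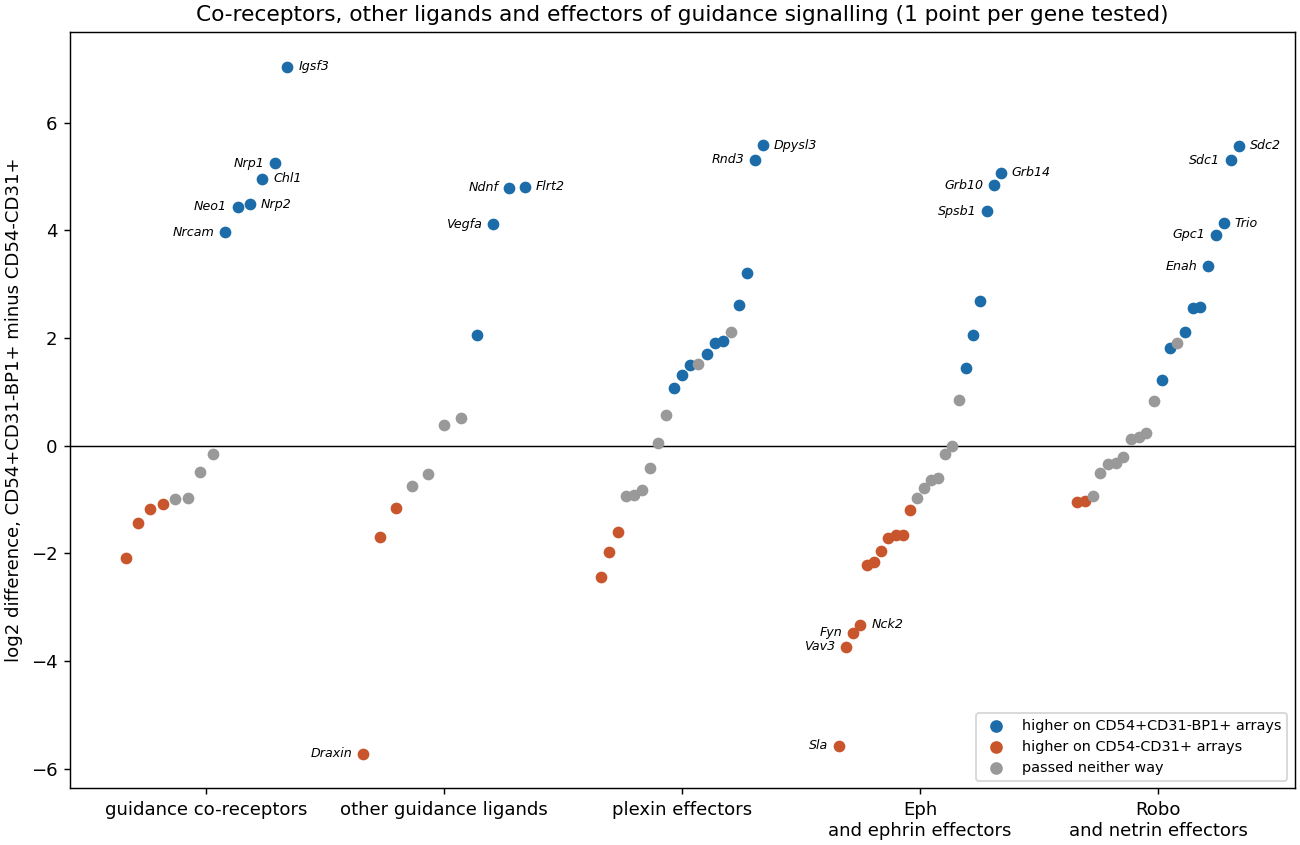
Log2 difference, CD54+CD31-BP1+ minus CD54-CD31+, of the 92 co-receptor, ligand and effector genes tested (1 point per gene, columns for the 5 lists). The 6 genes of the co-receptor list in the upper left stand between 3.97 and 7.04, and Draxin (-5.72) and Sla (-5.57) are the lowest points.

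The calls toward each population can also be read under other call rules. On adjusted p alone, 21 guidance genes were higher on the CD54+BP1+ arrays and 18 on the CD31+ arrays, where 36.9% and 31.5% of all genes were. With limma's treat, which tests against a log2 difference of 1, the counts were 14 and 2, where 15.9% and 6.11% of all genes passed. Leaving out any 1 array kept 20 genes higher on the CD54+BP1+ arrays, and left between 8 and 13 higher on the CD31+ arrays. Across the alternatives set out in the closing section, 12 of the 20 calls toward the CD54+BP1+ arrays were kept wherever the gene was tested. They were Sema7a, Sema4c, Sema5a, Slit2, Slit3, Plxnd1, Plxna2, Plxnb2, Epha3, Efna5, Efnb1 and Unc5b. Of the 12 calls toward the CD31+ arrays, Plxna4 was the one kept under every alternative that tested it.

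**Figure D5:**
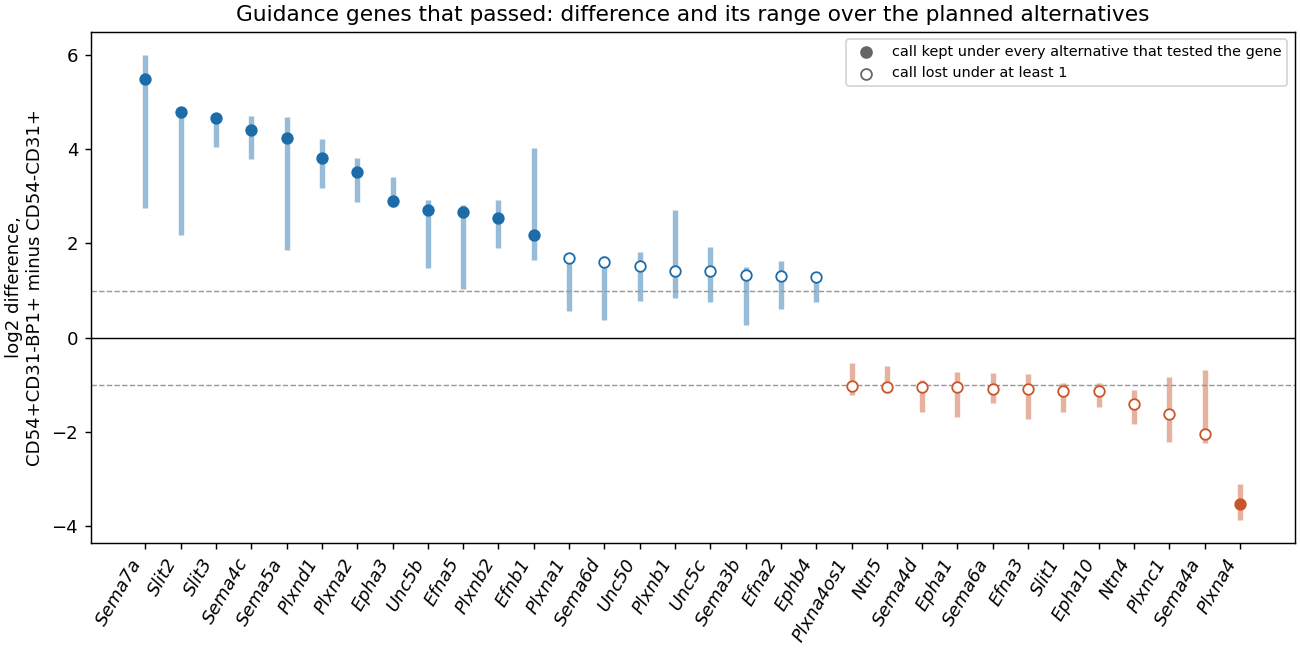
Log2 difference, CD54+CD31-BP1+ minus CD54-CD31+, of the 32 guidance genes that passed (points) and the range of that difference over the alternatives tried (bars), with dashed lines at 1 and -1. Filled points kept their call under every alternative that tested the gene, which holds for 12 of 20 genes on the upper side and for Plxna4 on the lower side.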

How the data were processed

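Expression in 7 samples was measured on Affymetrix Mouse Genome 430 2.0 arrays. The deposited log2 values come from RMA as run by the authors in Affymetrix Expression Console 1.1, per the submitters' processing notes. RMA normalizes by quantiles, which can shift differences where many genes change one way. No depth applies to arrays, and their number limits the precision.

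Symbols came from a probe annotation of 2016. Each gene was represented by the probe set with the highest mean among the 34945 probe sets with 1 symbol, of 45101. Genes with at least 3 arrays above their own 40th percentile were tested between the populations without covariates by lmFit and eBayes of limma 3.58.1 (R 4.3.3), and p-values were adjusted by Benjamini-Hochberg over 13995 genes. No fold is given where a group mean lay below the 40th percentile of its arrays. Values on every array are given for the passing genes whose groups did not overlap, up to 12 in each direction, for the brightest members of each family and for Robo4, and the other ligand and receptor genes that passed toward the CD54+BP1+ arrays were added after their values were seen. From each pathway list up to 3 passing genes per direction are named, less 1 that is not reported here. Nrp2, Neo1, Nrcam, L1cam, Kalrn, Dpysl2 and Gsk3b are named beyond this rule, after their values were seen. Of the listed pathway genes, Rhod, Pak1 and Ptk2 had no match. Marker lists were used to check the labels. The procedure was tested on simulated data. The members and lists were chosen with earlier results of these data known. Promoter windows were matched by symbol and searched on both strands. The alternatives tried changed the filter, the probe set per gene, the scaling, the variance model, the array weights, the call rule, blocks and the arrays included. Testing each probe set for itself, and recounting the pathway genes under the same alternatives, were added after seeing the data.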

Additional observations from a re-analysis of the deposited data

Results flagged for a closer look

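In 5 of the 57 guidance genes tested, 1 of the 4 CD54+BP1+ arrays stood apart from the other 3 by more than Dixon's critical value allows. Ephb4 read 8.57 on array 4 and 8.21 to 8.24 on the others. Epha2 read 9.07 on array 2 and 8.74 to 8.79 on the others. Epha7 read 5.72 on array 1, against 5.56 to 5.59. Epha1 read 5.87 on array 1, against 6.15 to 6.17, and Sema5b read 5.48 on array 1, against 5.76 to 5.80. Chance marks about 1 in 20 genes in this way. Of these genes Ephb4 and Epha1 passed the test between populations. The groups of 3 CD31+ arrays were too small for this rule.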

How the results depend on the processing

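No alternative scaling, filter, block, array set or gene summary turned the direction of a guidance gene that passed. The 12 guidance genes higher on the CD31+ arrays became 7 when the probe sets of each gene were averaged. With limma's treat against a log2 difference of 1 they became 2. Those higher on the CD54+BP1+ arrays went from 20 to 15 with the mean, 14 of them the same genes, and to 14 with treat. With the mean, 48 guidance genes were tested, and Epha3, Epha1 and Sema6a were not. Ligand genes higher on the CD31+ arrays went from 7 to 4 with the mean of probe sets, to 11 on adjusted p alone and to 1 with treat, and receptor genes from 4 to 2 with the mean and to 1 with treat. Toward the CD54+BP1+ arrays the mean gave 7 ligand and 7 receptor genes, against 10 and 9. Leaving out 1 array at a time gave 20 to 20 guidance genes higher on the CD54+BP1+ arrays and 8 to 13 on the CD31+ arrays, with 10 to 10 and 5 to 8 for ligands and 9 to 9 and 3 to 4 for receptors. Scaling moved calls. After a second quantile normalization 17 and 12 guidance genes passed, with 58.6% on the CD54+BP1+ side against 62.5% before, while the share over all genes went from 65.7% to 52%, and the median of all genes tested went from 0.19 to -0.12. After cyclic loess 16 and 10 passed. With the hybridisation control level as a block, which compares CD31+ array 1 alone with the CD54+BP1+ arrays, 18 and 9 passed. Unc50 then had 1.26 and Sema3b 0.98 and did not pass. Read by their other probe sets above the filter, which was tried after seeing the data, 5 genes differed in the other direction without passing: Efna2 at -0.09, Plxna1 at -0.58, Plxnc1 at 0.20, Sema6d at -0.30 and Sema3b at -0.66. Of the other alternatives, leaving out probe sets with cross-hybridising suffixes gave 17 and 9 and did not test Ephb4, Epha1, Sema3b and Sema6a. The cause of these changes was not tested. The number of pathway genes that passed stayed between 40 and 73, against 59.

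Replicate numbers are shared by the labels of both populations, but same-numbered arrays did not deviate together, with correlations of -0.11, -0.01 and 0.10. With the replicate number as a block, 20 and 11 guidance genes passed, 10 of the 12 on the CD31+ side being the same. With 4 and 3 arrays, differences near the limit of 1 could not be placed firmly on either side, as the genes between 1 and 1.2 in size show.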
